A study of Mus musculus with 3 samples.

Results

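The 8 genes of lymphocyte killing described here were followed across the cell types of the mouse liver: the granzymes Gzma and Gzmb, the pore protein gene Prf1, the granule membrane gene Nkg7, the death ligand gene Fasl, the cytokine gene Ifng, and the receptor genes Klrg1 and Klrd1. They were chosen by name, and are 8 of the 20207 genes listed in both count tables. Liver cells were captured on BD Rhapsody cartridges and all polyadenylated transcripts were counted, as 1 library of mice on a normal chow diet (NCD) and 1 library of mice on a high-fat, high-cholesterol (HFHC) diet. The strain was C57BL/6J. The first library is from wild-type (WT) mice. It is taken as NCD by elimination, because its sample title reads MCD and its header reads APAP0h, and the study's methods describe an NCD library. MCD (methionine-choline deficient) is also a diet of the study, so the labels alone do not settle the diet of this library. The number of its cells kept under strict limits matched the study's number for NCD livers, as given with the processing. That match goes with NCD but is no record of the diet. Every value called NCD here carries the doubt that the labels leave. The second library, titled WT_HCFC and Chil1-/-_HFHC and called the HFHC pool here, holds cells of WT mice and of Chi3l1-/- mice, both on the HFHC diet, with no genotype for each cell. The study describes the cells as non-parenchymal cells, while the labels name parenchymal cells, and hepatocytes were present in both libraries. With 1 library per diet there is no test between them: no p-value or standard error is given, all intervals are 95% intervals of counting error alone, and diet, genotype, capture and library cannot be told apart.

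Cytotoxic lymphocytes store granzymes and perforin in granules and release them onto a target cell, where perforin opens the membrane and the granzymes, which are serine proteases, cut proteins inside. Fas ligand kills through the receptor Fas on the target, and interferon gamma, the product of Ifng, acts on receptors of macrophages, hepatocytes and other cells. In the liver these genes are known from natural killer (NK) cells, from the tissue-resident type 1 innate lymphoid cells (ILC1), and from CD8 T cells. The transcription factors T-bet and Eomes (T-box family) and RUNX3 are known regulators of this program.

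The promoters of the genes that the results below turn on are shown with the letters of 3 motifs known from such genes. The genes lie at chr13:113093824-113100981 (Gzma), chr14:56258836-56262334 (Gzmb), chr10:61297751-61304684 (Prf1), chr7:43437138-43438246 (Nkg7), chr1:161780691-161788495 (Fasl), chr10:118441046-118445894 (Ifng), chr6:122270596-122282833 (Klrg1) and chr6:129588092-129598775 (Klrd1). Of the 8 genes, 6 matched the RefSeq promoter table of build GRCm38.p6; Klrg1 and Klrd1 did not. Both strands of the 250 bases before each gene's start were searched for TCACAC (T-box; GTGTGA on the other strand), TGTGGT (RUNX; ACCACA on the other strand) and TTCNNNGAA (GAS, the gamma-activated site). Capitals mark the matches, none of which overlap, and each sequence runs 5′ to 3′ on the gene's own strand.
Gzma, chr13:113100982-113101231, minus strand: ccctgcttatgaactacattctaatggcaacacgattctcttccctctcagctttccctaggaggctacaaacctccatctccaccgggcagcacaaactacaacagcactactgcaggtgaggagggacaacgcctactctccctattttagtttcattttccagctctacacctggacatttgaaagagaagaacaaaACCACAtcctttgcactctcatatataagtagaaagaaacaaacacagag
Gzmb, chr14:56262335-56262584, minus strand: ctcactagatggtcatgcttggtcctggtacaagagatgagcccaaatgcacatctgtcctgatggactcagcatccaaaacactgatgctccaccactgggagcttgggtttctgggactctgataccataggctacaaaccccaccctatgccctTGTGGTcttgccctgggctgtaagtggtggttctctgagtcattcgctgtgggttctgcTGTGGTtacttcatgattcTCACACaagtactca
Nkg7, chr7:43436888-43437137, plus strand: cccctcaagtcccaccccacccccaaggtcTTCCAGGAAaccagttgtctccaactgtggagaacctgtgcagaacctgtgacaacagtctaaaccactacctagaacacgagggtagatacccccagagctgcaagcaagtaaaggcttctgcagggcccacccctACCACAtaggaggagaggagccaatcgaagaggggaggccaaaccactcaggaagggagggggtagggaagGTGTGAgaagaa
Ifng, chr10:118440796-118441045, plus strand: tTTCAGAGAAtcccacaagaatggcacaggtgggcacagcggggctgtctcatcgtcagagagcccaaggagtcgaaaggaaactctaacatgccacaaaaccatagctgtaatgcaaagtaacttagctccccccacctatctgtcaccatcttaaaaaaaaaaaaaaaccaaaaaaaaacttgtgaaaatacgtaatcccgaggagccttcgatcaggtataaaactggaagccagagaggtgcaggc
The RUNX letters stood in 4 of the 6 windows (Gzma, Gzmb, Prf1 and Nkg7) and in 14.0% of 32851 promoter windows of the same length. The T-box letters stood in 2 of the 6 (Gzmb and Nkg7), beside 12.3% of all windows, and the GAS letters in 2 of the 6 (Nkg7 and Ifng), beside 7.02%. In Gzmb, RUNX matches began 93 and 34 bases before the start and the T-box match 15 bases before it. The Fasl window held none of the 3 patterns. For Prf1 the start used lies inside the gene coordinates given above, so its window, chr10:61297586-61297835, lies partly within the gene. These matches describe letters in a short window and not binding.

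The NCD table lists 30734 cells with 53720863 UMIs (unique molecular identifiers, each a counted molecule), of which 23346 cells were kept. The table of the pool lists 21601 cells with 71981673 UMIs, and 19625 were kept. Of the kept cells, 507 barcodes occur in both libraries. Classes of cells were made by clustering without the 8 genes, so that none of them defines a class, and named from other markers; names carry "-like" because they rest on transcripts. NK-like cells numbered 181 (NCD) and 264 (pool), ILC1-like cells 269 and 213, CD8 T-like cells 35 and 518, and other T-like cells 2579 and 1818. These 4 classes together were 13.1% and 14.3% of the kept cells. The median depth of NK-like cells was 1546 UMIs (NCD) and 3108 UMIs (pool), and that of ILC1-like cells 1605 and 4050, so shares of cells with a UMI are given after each cell was thinned to 1000 UMIs. The 12 markers of the NK list summed to 9278 CPM (NCD) and 8876 CPM (pool) in NK-like cells, and to 607 and 503 CPM in other T-like cells. The 11 markers of the ILC1 list summed to 4148 and 5039 CPM in ILC1-like cells. In NK-like cells they summed to 1801 and 2068 CPM, and in other T-like cells to 2895 and 2728 CPM. The classes were named from these same lists, so the sums are no separate evidence for the names. The CD8 T-like class was made of different cells in each library: 30 of the 35 NCD cells lay in a cluster led by Cd8b1 and Cd8a, while of the pool 249 lay there and 269 in a cluster led by Gzmk and Ccl5, which had 5 cells in the NCD library. This class does not hold all cells with CD8 transcripts. An unnamed cluster led by Nsg2 and Dapl1 (277 and 393 cells), with Cd8a in 67.6% of its cells, was counted as other T-like. With classes from each cell's own markers, CD8 T-like cells numbered 375 (NCD) and 964 (pool).

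**Figure D1:**
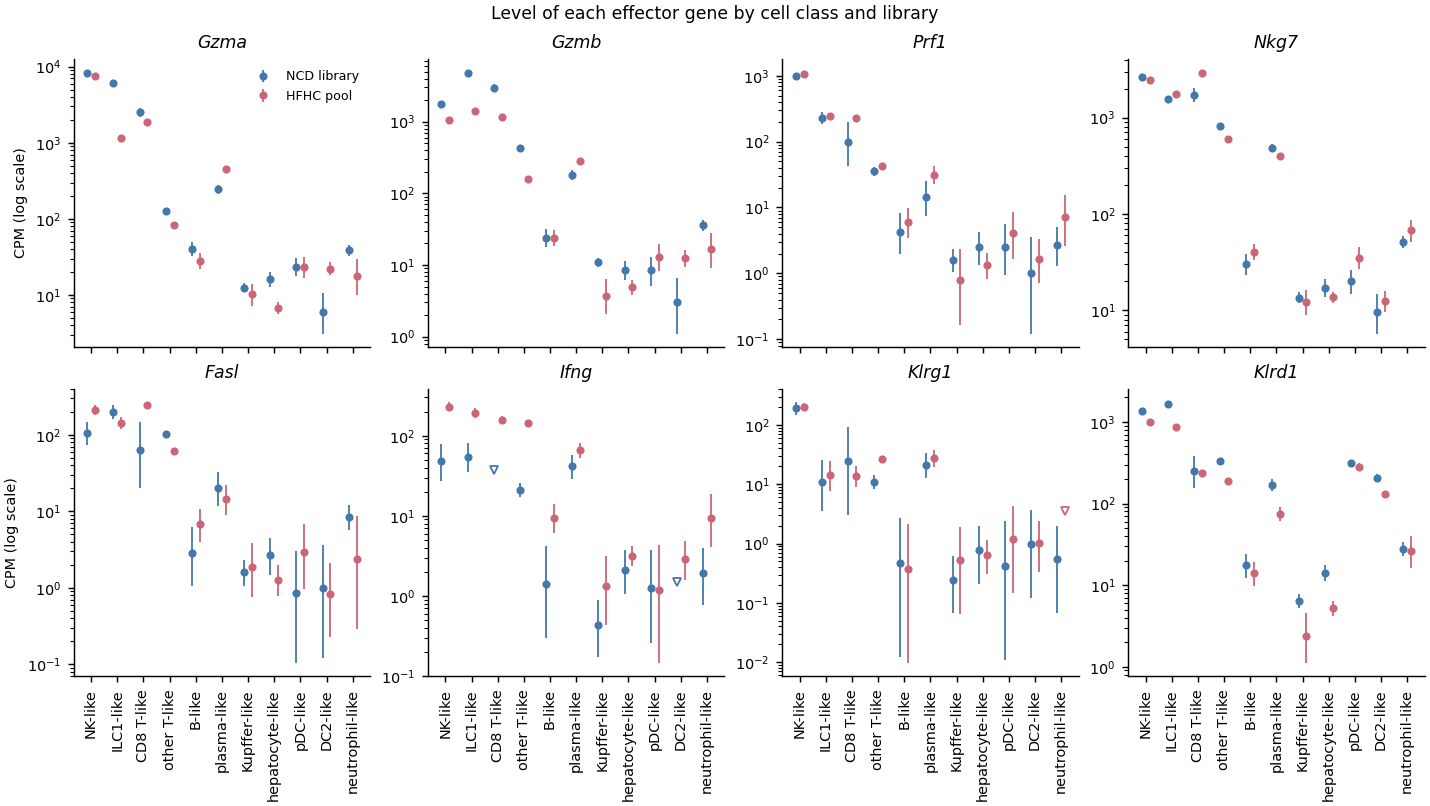
Level of each of the 8 genes (CPM, the gene's UMIs scaled to all UMIs of the class) in selected cell classes, on a log axis. Blue marks the NCD library and red the HFHC pool. Bars on points are exact Poisson 95% intervals, and open triangles mark the limit that 3 counts set where no UMI was found. The NK-like, ILC1-like and CD8 T-like classes lie above the B cell-like and hepatocyte-like classes for the granzymes, Prf1 and Nkg7 (Gzma of CD8 T-like cells of the NCD library only through 1 cell, being at 14.2 CPM without it). Klrd1 is also high in plasmacytoid dendritic cells. Basophil or mast cells, with Gzmb at 1131 CPM in the pool, are not drawn.

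Of the 8 genes, Gzma differed most between the libraries in ILC1-like cells, and little in NK-like cells. In NK-like cells Gzma stood at 8146 CPM in the NCD library (interval 7832 to 8469) and at 7577 CPM in the pool (7399 to 7758), a log2 ratio of pool over NCD of -0.10 (-0.17 to -0.04). In ILC1-like cells it stood at 6029 CPM (5806 to 6258) and 1161 CPM (1092 to 1233), a log2 ratio of -2.38 (-2.48 to -2.27), at percentile 0.076 of the 2623 genes compared there. NK-like cells of both diets carried close levels of this tryptase, while the intervals of ILC1-like cells lay far apart. In thinned cells the ratio of NK-like cells turned to 0.10.

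Fewer ILC1-like cells of the pool had the transcript. Thinning left out 36 NK-like, 21 ILC1-like and 2 CD8 T-like cells of the NCD library as too shallow, and 0 of the pool. After it, 64.1% of 248 ILC1-like cells of the NCD library had a Gzma UMI (57.8 to 70.1%) and 19.7% of 213 of the pool (14.6 to 25.7%); unthinned, the shares were 64.3% and 24.9%. In NK-like cells 95.9% of 145 and 87.9% of 264 had one, and 97.2% and 91.3% unthinned. The median ILC1-like cell held 4 Gzma UMIs of its 1000 (NCD) and 0 (pool), and in the pool 1 cell held 178 of the 1048 Gzma UMIs of the class. The background share, in B cell-like cells, was 0.746% and 0.708%, at median depths of 1332 and 2637 UMIs. The whole list of 8 T cell markers summed to 2936 CPM in ILC1-like cells of the NCD library and 1698 CPM in the pool, with all 8 detected in both, beside 8128 and 6991 CPM in other T-like cells; its part in the Gzma difference was not tested. The 8 neutrophil markers, of which 5 to 7 had UMIs in each library, summed to 572 and 29.7 CPM in NK-like and 304 and 114 CPM in ILC1-like cells; their part in the results was not tested. The 12 NK markers summed to 3406 and 3101 CPM in ILC1-like cells.

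Gzmb, which cuts proteins after aspartate and sets off caspases, was lower in the pool in NK-like, ILC1-like and other T-like cells. In NK-like cells it stood at 1772 CPM (NCD) and 1039 CPM (pool), a log2 ratio of -0.77 (-0.92 to -0.62). In ILC1-like cells the levels were 4703 and 1391 CPM, a log2 ratio of -1.76 (-1.86 to -1.66). In other T-like cells they were 429 and 161 CPM, a log2 ratio of -1.42 (-1.53 to -1.31), and between -2.30 and -1.15 over 11 alternatives. Gzmb was higher in ILC1-like than in NK-like cells in both libraries, by 1.41 on the log2 scale in the NCD library and by 0.42 in the pool. Thinned shares of cells with a Gzmb UMI were 57.9% and 50.0% for NK-like cells, with intervals that overlap (49.5 to 66.1% and 43.8 to 56.2%), and 73.8% and 37.6% for ILC1-like cells, whose intervals do not. In B cell-like cells, which should lack the gene, Gzmb stood at 23.8 and 24.1 CPM.

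In CD8 T-like cells the granzyme values of the NCD library rest on 1 cell. Gzma stood at 2506 CPM in the 35 cells of that library and at 1871 CPM in the 518 of the pool, and Gzmb at 2957 and 1163 CPM. One cell of the 35 held 199 of the 200 Gzma UMIs, 167 of the 236 Gzmb UMIs and 34 of the 137 Nkg7 UMIs. Without it the class stood at 14.2 CPM for Gzma and 980 CPM for Gzmb, and the log2 ratio of pool over NCD turned from -0.43 to 6.04 for Gzma and from -1.35 to 0.23 for Gzmb. These signs also turned when classes were built in other ways, so no direction is given for the granzymes in CD8 T-like cells. In the pool the genes lay mainly in the cluster led by Gzmk and Ccl5, at 3132 CPM of Gzma and 1810 CPM of Gzmb, against 452 and 434 CPM in the cluster led by Cd8b1 and Cd8a. Gzmk is a further granzyme gene and Ccl5 a chemokine gene.

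Prf1, which encodes perforin, was a gene of NK-like cells above all, at levels close to each other in the libraries. It stood at 987 CPM in NK-like cells of the NCD library (880 to 1104) and 1067 CPM in the pool (1001 to 1137), a log2 ratio of 0.11 (-0.07 to 0.30). In ILC1-like cells it stood at 229 and 243 CPM, a log2 ratio of 0.07 (-0.26 to 0.43). NK-like cells exceeded ILC1-like cells by 2.10 on the log2 scale in the NCD library (1.78 to 2.44) and by 2.13 in the pool (1.92 to 2.36). Thinned shares of cells with a UMI were 58.6% and 56.8% of NK-like cells and 22.6% and 21.1% of ILC1-like cells. For CD8 T-like cells 8 UMIs in the NCD library gave 100 CPM, and 395 UMIs in the pool 228 CPM, a log2 ratio of 1.02 with a wide interval of 0.19 to 2.41, and between 0.92 and 3.73 over 13 alternatives.

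Nkg7, a membrane protein of the granules that is needed for their release, was found in most NK-like, ILC1-like and CD8 T-like cells of both libraries. NK-like cells held 2627 CPM in the NCD library and 2469 CPM in the pool, and ILC1-like cells 1562 and 1754 CPM, with log2 ratios of -0.09 (-0.21 to 0.03) and 0.17 (0.04 to 0.30). CD8 T-like cells held 1716 and 2878 CPM, a log2 ratio of 0.74 (0.50 to 1.0), but in the cluster led by Cd8b1 and Cd8a alone the ratio was 0.20 (-0.06 to 0.50). Other T-like cells held 816 and 605 CPM, a log2 ratio of -0.43 (-0.50 to -0.37). In the pool the level in CD8 T-like cells was above that in NK-like cells by 0.22 on the log2 scale, and in the NCD library below it by 0.61; in the pool the sign turned, to 0.052, when the 8 genes were used for the clustering. Between 78.6% and 89.7% of NK-like, ILC1-like and CD8 T-like cells had a Nkg7 UMI after thinning in either library.

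Fasl differed in opposite directions between classes. NK-like cells held 106 CPM in the NCD library (33 UMIs) and 212 CPM in the pool (192 UMIs), a log2 ratio of 0.96 (0.46 to 1.57). CD8 T-like cells held 62.6 CPM (5 UMIs) and 246 CPM (427 UMIs), a log2 ratio of 1.72 (0.74 to 3.61) that lay between 0.76 and 3.03 over 13 alternatives. ILC1-like cells held 199 and 144 CPM, a log2 ratio of -0.47 (-0.86 to -0.06), and other T-like cells 104 and 60.9 CPM, a log2 ratio of -0.77 (-0.97 to -0.58). In cells thinned to 1000 UMIs the ratios shrank to 0.40 in NK-like and -0.14 in ILC1-like cells, and the differences between these ratios were not tested. Thinned shares of cells with a Fasl UMI were 11.7% and 15.5% in NK-like cells, 14.5% and 15.5% in ILC1-like cells and 9.09% and 19.9% in CD8 T-like cells, and the intervals of each pair overlap. Fas, the receptor of this ligand, stood at 96.6 CPM in endothelial cells of both libraries, at 83.3 and 111 CPM in neutrophils and at 11.3 and 12.7 CPM in hepatocytes.

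Ifng was higher in the pool in all 4 lymphocyte classes, and was the only one of the 8 genes of which this held by more than 1 on the log2 scale. It stood at 48.2 CPM (15 UMIs) and 231 CPM (210 UMIs) in NK-like cells, a log2 ratio of 2.18 (1.51 to 3.12), and at 54.6 CPM (25 UMIs) and 192 CPM (173 UMIs) in ILC1-like cells, a log2 ratio of 1.76 (1.20 to 2.48). In other T-like cells it stood at 21.1 and 145 CPM, a log2 ratio of 2.77 (2.49 to 3.09). CD8 T-like cells of the NCD library held 0 UMIs, and against the limit of 3 counts in that class, 37.6 CPM, the 156 CPM of the pool were at least 4.16-fold higher. The counting interval of the log2 ratio began lower, at 1.75, and over 13 alternatives the ratio lay between 1.54 and 3.86. Thinned shares of cells with a UMI were 4.14% and 15.5% in NK-like cells and 2.42% and 20.2% in ILC1-like cells, and unthinned 7.18% and 33.7%, and 5.95% and 38%. B cell-like cells, which should lack the transcript, were also higher in the pool, at 1.43 CPM (3 UMIs) and 9.42 CPM (25 UMIs), and non-lymphoid cells together stood at 1.08 and 3.21 CPM. Genes that respond to tissue dissociation moved in the same direction: in NK-like cells 8 of the 12 that could be compared were higher in the pool by more than 1 on the log2 scale, in ILC1-like cells 11 of 13, in CD8 T-like cells 9 of 13 and in other T-like cells 10 of 14, with medians of 2.14, 2.21, 2.01 and 2.01. Of all genes compared in these classes, 4.20%, 4.80%, 8.92% and 4.81% were higher by that much. Fos, for example, stood at 70.7 and 989 CPM in NK-like cells, and reached the UMI minimum for a ratio there only through the pool. The part of dissociation in the Ifng difference was not tested.

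**Figure D2:**
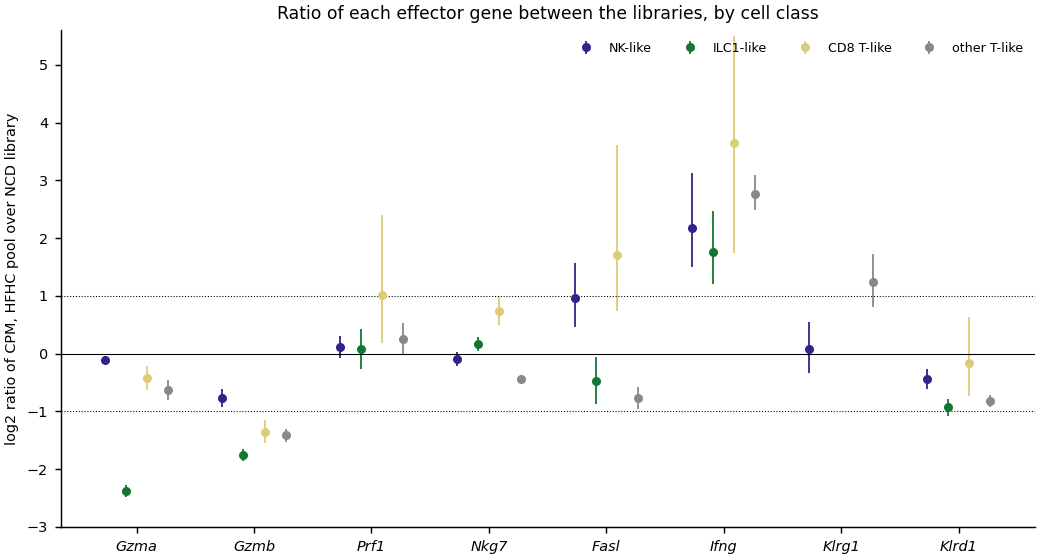
Log2 ratio, HFHC pool over NCD, of each gene that had 100 UMIs or more (sum of the libraries), by lymphocyte class, with counting intervals (95%); the bar of Ifng in CD8 T-like cells has no upper end, since no UMI was found in the NCD library, and is drawn to the edge. Ifng lies above 1 in every class, and Gzmb below 0 in every class (in CD8 T-like cells it is 0.23 without 1 cell of the NCD library). Gzma lies far below 0 only in ILC1-like cells, where its ratio is -2.38.

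Klrg1, an inhibitory receptor for cadherins that marks mature killer cells, was found in NK-like cells and in some T-like clusters. NK-like cells held 36.4% and 38% of its UMIs and other T-like cells 33.3% and 34.9%. In NK-like cells it stood at 190 CPM in the NCD library (59 UMIs) and 203 CPM in the pool (184 UMIs), a log2 ratio of 0.08 (-0.33 to 0.54). ILC1-like cells held 5 and 13 UMIs and CD8 T-like cells 2 and 24, too few for a ratio between libraries. In the pool NK-like cells exceeded CD8 T-like cells by 3.82 on the log2 scale (3.25 to 4.55). Among other T-like cells Klrg1 stood at 10.9 and 26.2 CPM, a log2 ratio of 1.24 (0.81 to 1.73), and 149 of its 169 UMIs in the pool lay in the regulatory T-like cluster, which had 28 cells (NCD) and 230 cells (pool). In the NCD library that cluster held 11 of the 54 Klrg1 UMIs of other T-like cells, and the cluster led by Serpina3f and Tcrg-C2 held 26. Within the regulatory T-like cluster Klrg1 stood at 171 CPM (11 UMIs, NCD) and 192 CPM (pool). The part of that cluster's share of the class in the ratio of other T-like cells was not tested.

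Klrd1 encodes CD94, which pairs with NKG2 receptors to bind the non-classical MHC molecule Qa-1. It was lower in the pool in NK-like cells, at 1364 and 1005 CPM (log2 ratio -0.44, interval -0.61 to -0.27), in ILC1-like cells, at 1641 and 862 CPM (-0.93, interval -1.08 to -0.78), and in other T-like cells, at 330 and 187 CPM (-0.82, interval -0.93 to -0.71). In CD8 T-like cells it stood at 251 CPM (20 UMIs) and 235 CPM, with an interval that includes 0. NK-like cells exceeded CD8 T-like cells by 2.38 (NCD) and 2.10 (pool) on the log2 scale. Thinned shares of cells with a UMI were 69.7% and 62.1% for NK-like cells and 76.2% and 54.0% for ILC1-like cells.

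**Figure D3:**
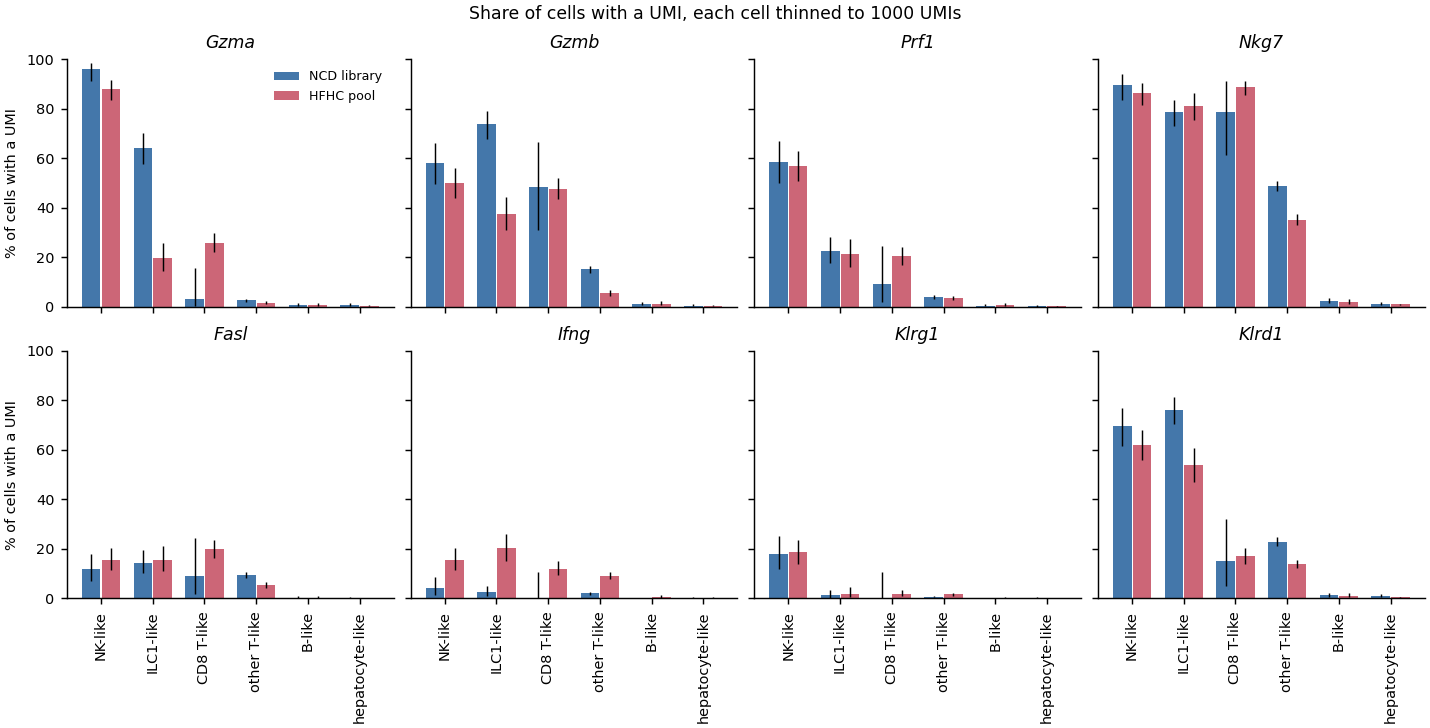
Share of cells with at least 1 UMI of each gene after thinning each cell to 1000 UMIs, by class, blue for the NCD library and red for the HFHC pool, with exact binomial 95% intervals. Gzma, Gzmb and Klrd1 differ most in ILC1-like cells, and Ifng is higher in the pool in the NK-like, ILC1-like and CD8 T-like classes; B-like and hepatocyte-like cells stay at or below 2.24%.

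The 8 genes did not move as a block between the libraries in NK-like, ILC1-like and other T-like cells. A gene is counted here when its log2 ratio passed 1 in size, among genes with at least 100 UMIs. In NK-like cells 1 of 8 was higher in the pool (Ifng) and 0 lower, where 4.20% of 2310 genes were higher and 1.82% lower, and the median ratio was -0.01 for the 8 and 0.00 for all genes compared. In ILC1-like cells 1 of 7 was higher and 2 were lower (Gzma and Gzmb), where 4.80% of 2623 genes were higher and 2.48% lower, with medians of -0.47 and -0.03. In CD8 T-like cells 3 of 7 were higher (Prf1, Fasl and Ifng) and 1 lower (Gzmb, from 1 cell as described), where 8.92% and 6.22% of 3216 genes were. The 3 higher genes held 8, 5 and 0 UMIs in the NCD library and reached 100 UMIs only through the pool, where they are high. The same holds for Ifng in NK-like and ILC1-like cells, with 15 and 25 UMIs in the NCD library. In other T-like cells 2 of 8 were higher (Ifng and Klrg1) and 1 lower (Gzmb), where 4.81% and 2.74% of 8382 genes were. Klrg1 held 54 UMIs in that class of the NCD library and 169 in the pool, so it too reached 100 UMIs only through the pool. The median of the genes was 0.74 in CD8 T-like cells and -0.53 in other T-like cells, where the medians of all genes were -0.05 and 0.03. Without the 1 cell, the granzymes of CD8 T-like cells stood at 6.04 (Gzma) and 0.23 (Gzmb), and with each library clustered alone at 2.58 and 2.36, so that the count and directions in that class depend on how it is made.

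Between classes of 1 library, which share a capture, NK-like cells were compared with CD8 T-like and ILC1-like cells. Over CD8 T-like cells of the NCD library, 3 of 5 genes were higher in NK-like cells (Gzma, Prf1 and Klrd1) and 0 lower, where 10.2% of 650 genes were higher and 1.85% lower. In the pool, with 4429 genes, 4 of 8 were higher (Gzma, Prf1, Klrd1 and Klrg1) and 0 lower, where 5.55% and 5.44% of all genes were. Over ILC1-like cells of the NCD library, Prf1 was higher and Gzmb lower among 6 genes, where 3.82% and 5.07% of 1440 genes were. In the pool Gzma, Prf1 and Klrg1 were higher and 0 of 8 lower, where 3.0% and 3.35% of 3370 genes were. Some of these genes reached 100 UMIs only through NK-like cells, where they are high. Prf1 and Klrd1 held 8 and 20 UMIs in CD8 T-like cells of the NCD library. Klrg1 held 24 UMIs in CD8 T-like and 13 in ILC1-like cells of the pool. Gzma separated NK-like from ILC1-like cells by 0.43 on the log2 scale in the NCD library and by 2.71 in the pool.

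**Figure D4:**
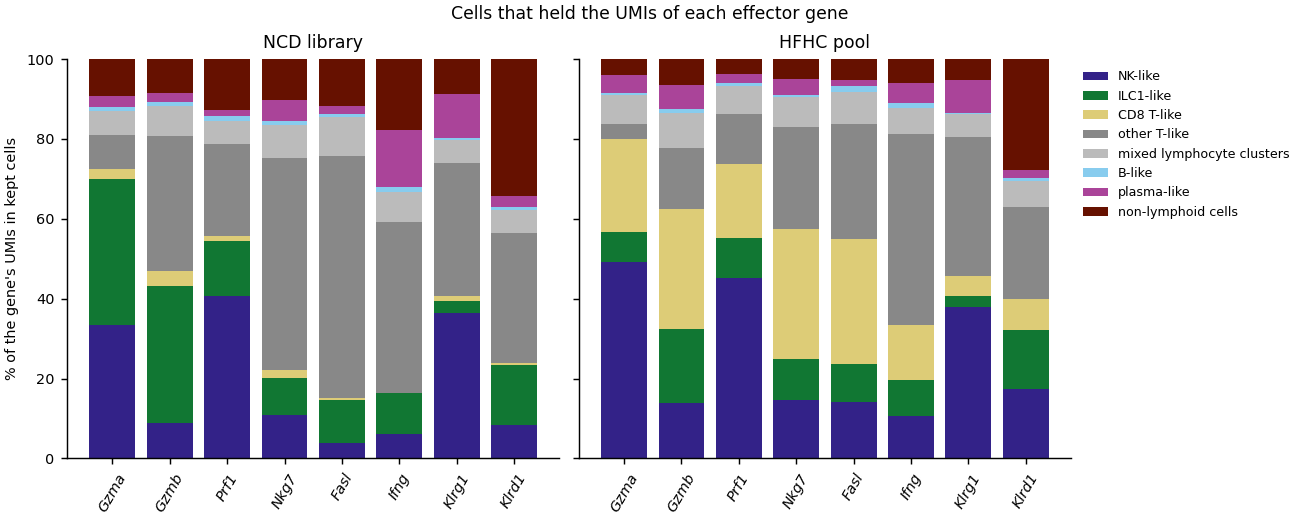
Share of each gene's UMIs in all kept cells that each cell class held, stacked to 100%, in the NCD library and the HFHC pool. NK-like, ILC1-like and T-like cells together hold between 56.4% (Klrd1, NCD library) and 86.3% (Prf1, HFHC pool), and non-lymphoid cells hold most of the rest for Klrd1.

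Most molecules of the 8 genes were found in the NK-like, ILC1-like and T-like classes, and which class held them differed between the libraries. Of all Gzma UMIs in kept cells, NK-like cells held 33.4% (NCD) and 49.3% (pool), ILC1-like cells 36.4% and 7.5%, and CD8 T-like cells 2.64% and 23.2%. For Gzmb the ILC1-like share was 34.4% and 18.6%, and other T-like cells held 33.8% and 15.4%. Prf1 lay to 40.7% and 45.1% in NK-like cells. Of the Fasl UMIs, other T-like cells held 60.6% and 28.9%, and CD8 T-like cells 0.590% and 31.4%. A share depends on the number of cells in the class as well as on the level. CD8 T-like cells numbered 35 and 518, and the other T-like class includes cells with CD8 transcripts.

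Klrd1 was also found in plasmacytoid dendritic cells. Plasmacytoid dendritic cells held 314 CPM in the NCD library and 283 CPM in the pool, and 24.0% and 23.8% of them had a UMI after thinning, beside 1.40% and 1.18% of B cell-like cells. The cluster named from type 2 dendritic cell markers, whose leading genes also include Gpnmb, Ly6i, Cx3cr1 and Ccr2, known from monocytes and macrophages, held 207 and 131 CPM, which cannot be assigned to dendritic cells alone. The log2 ratios of pool over NCD were -0.15 (-0.32 to 0.02) and -0.66 (-0.84 to -0.48). Gzmb stood at 1131 CPM in the 21 basophil or mast cells of the pool, where 5 cells had a UMI and 1 cell held 81 of the 113 UMIs, and at 45.4 CPM in the 73 NCD cells. The plasma cell-like cluster held Gzma at 246 and 446 CPM, together with the division genes Top2a and Mki67 among its leading genes and T cell transcripts, with Trac at 1113 and 560 CPM and Cd3e at 715 and 343 CPM, so its Gzma cannot be assigned to plasma cells. Kupffer cells held between 0.245 and 13.5 CPM of each of the 8 genes in either library. In hepatocytes the range was 0.634 to 17.2 CPM.

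**Figure D5:**
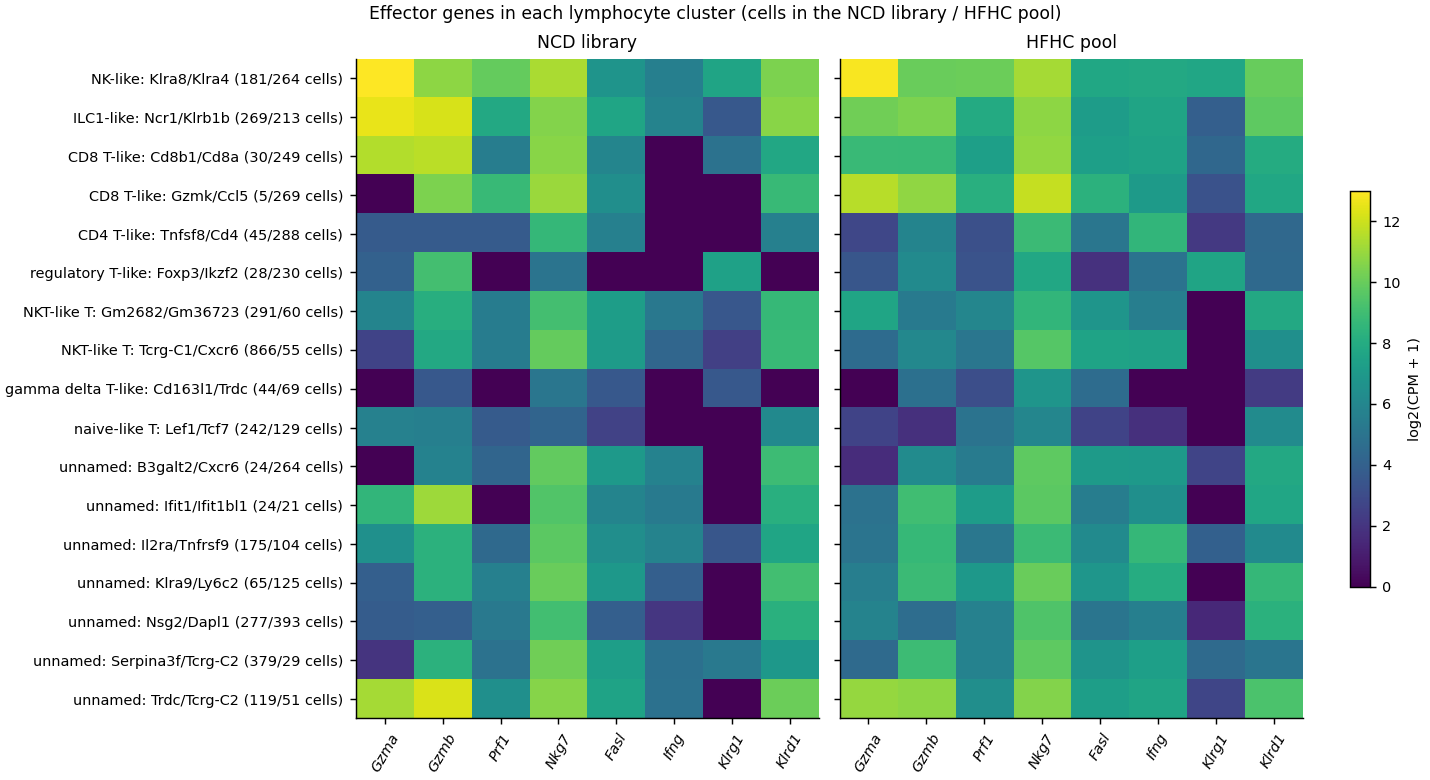
Level of the 8 genes, as log2(CPM + 1), in each lymphocyte cluster (rows, with their cell numbers) in each library. Gzma is bright in the NK-like cluster of both libraries and in the ILC1-like cluster of the NCD library; Gzmb is bright in the Trdc/Tcrg-C2 cluster (4848 CPM) and the ILC1-like cluster (4703 CPM) of the NCD library.

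Among the other T-like cells, 1 cluster carried most of the Gzma UMIs. The unnamed cluster led by Trdc and Tcrg-C2, genes of the gamma and delta T cell receptor chains, had 119 (NCD) and 51 (pool) cells. It held 512 of the 635 Gzma UMIs of other T-like cells (NCD) and 357 of the 537 (pool), and 1031 of the 2118 and 319 of the 1038 Gzmb UMIs. Its level was 2408 and 1987 CPM of Gzma, a log2 ratio of -0.28 (-0.48 to -0.08), and 4848 and 1776 CPM of Gzmb, a log2 ratio of -1.45 (-1.63 to -1.27). The NKT-like cluster led by Tcrg-C1 and Cxcr6 was the largest of this class in the NCD library, with 866 cells there and 55 cells in the pool, and held Gzmb at 228 and 66.8 CPM, a log2 ratio of -1.66 (-2.74 to -0.95). Gzmb was not lower in every cluster: in the unnamed clusters led by Il2ra and Tnfrsf9 and by Klra9 and Ly6c2 the log2 ratios were 0.37 (0.06 to 0.70) and 0.48 (0.04 to 0.99). Ifng had log2 ratios of 2.83 in the first of these and 3.68 in the second. They held 27 and 2 Ifng UMIs in the NCD library and 167 and 130 in the pool, so they reached 100 UMIs only through the pool. The filter thus picks clusters high in the pool, and no direction of Ifng over all clusters is given. The CD4 T-like cluster held 0 Ifng UMIs (NCD) and 321 (pool), at least 9.99-fold higher against the limit of 3 counts. The counting interval of its log2 ratio began lower, at 3.01. Levels were low in naive-like T cells, where Nkg7 stood at 17.4 and 60.5 CPM.

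In single cells, Gzmb was found more often beside Gzma in NK-like and ILC1-like cells. Prf1 was found more often beside Gzmb in NK-like cells, and in ILC1-like cells of the NCD library. The differences were not tested. After thinning, the median NK-like cell had UMIs of 4 of the 8 genes in both libraries, the median ILC1-like cell of 4 (NCD) and 2 (pool), the median CD8 T-like cell of 2 in both and the median other T-like cell of 1 in both. Among NK-like cells with a Gzmb UMI, 70.2% (NCD) and 66.7% (pool) had a Prf1 UMI, beside 42.6% and 47.0% of the rest. In ILC1-like cells of the NCD library these shares were 25.1% and 15.4%. Among ILC1-like cells with a Gzma UMI, 86.2% and 73.8% had a Gzmb UMI, beside 51.7% and 28.7% of the rest. In NK-like cells 139 of 145 (NCD) and 232 of 264 (pool) had a Gzma UMI, so the rest were few. Among those with one, 59.7% and 56.0% had a Gzmb UMI, beside 16.7% and 6.25% of the rest. The pairing of Prf1 with Gzma differed by class and library. In NK-like cells Prf1 was found in 60.4% (NCD) and 62.9% (pool) of the cells with a Gzma UMI. It was found in 16.7% and 12.5% of the few others. In ILC1-like cells the shares were 24.5% and 19.1% in the NCD library and 47.6% and 14.6% in the pool, and in CD8 T-like cells of the pool 22.4% and 19.5%. For Ifng the pairing differed by gene and class. In NK-like cells of the pool 13.6% of the cells with a Gzmb UMI and 17.4% of the rest had one, but 17.2% of those with a Gzma UMI and 3.12% of the 32 others. In ILC1-like cells of the pool Ifng was in 38.1% of the cells with a Gzma UMI and 15.8% of the rest, and in 26.2% and 16.5% by Gzmb. In CD8 T-like cells of the pool it was in 6.48% of the cells with a Gzmb UMI and 17.0% of the rest, and in other T-like cells in 20% and 8.57%. These are descriptions over cells that share a library.

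The other genes of the pathway are read beside the shares of all genes, 4.20% higher and 1.82% lower in NK-like cells and 4.80% and 2.48% in ILC1-like cells. Of the death ligands and cytokines, in NK-like cells 3 of 4 that could be compared were higher in the pool by more than 1 on the log2 scale, with Xcl1 at 145 and 709 CPM, Ccl3 at 312 and 1152 CPM and Ccl4 at 360 and 919 CPM. In ILC1-like cells 4 of 6 were higher, with the lymphotoxin gene Ltb at a ratio of 1.54, Ccl4 at 1.43, Ccl3 at 1.24 and Xcl1 at 1.13. Xcl1 and Ccl3 in NK-like cells reached the UMI minimum for a ratio only through the pool, where they are high. Granule proteins and their processing enzymes gave 0 of 5 past 1 in both classes, with medians of -0.06 and -0.09. Of the genes of granule release, 0 of 3 were past 1 in NK-like cells and 1 of 5 in ILC1-like cells, where Lyst, needed for lysosome size, stood at 91.7 and 199 CPM. Lyst in ILC1-like cells also reached the UMI minimum only through the pool. Of the granzyme inhibitors, Serpinb9b was lower in NK-like cells, at 261 and 71.6 CPM (log2 ratio -1.86), as 1 of 4. Gzmk stood at 75.2 and 568 CPM in CD8 T-like cells, a log2 ratio of 2.70, and Gzmc at 315 and 324 CPM in ILC1-like cells. Gzmk reached the UMI minimum for a ratio only through the pool. Of the CD8 T-like cells, 5 (NCD) and 269 (pool) lay in the cluster led by Gzmk and Ccl5. The part of that cluster in the Gzmk ratio was not tested.

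In CD8 T-like cells 8.92% of all genes were higher and 6.22% lower, and in other T-like cells 4.81% and 2.74%, beside which the same lists are read. Of the death ligands and cytokines, 3 of 6 were higher in CD8 T-like cells of the pool (Ccl3, Ccl4 and Ccl5) and 1 was lower, the chemokine gene Xcl1, at 451 and 86.5 CPM. The cluster led by Gzmk and Ccl5 gave 5 (NCD) and 269 (pool) of the CD8 T-like cells. Its part in these ratios, that of Ccl5 among them, was not tested. In other T-like cells 3 of 9 were higher, with Ccl4 at 17.0 and 76.6 CPM, and Il2 was lower. Ccl4 reached the UMI minimum for a ratio there only through the pool. The lectin-like receptors gave 0 of 3 in CD8 T-like cells. In other T-like cells 2 of 11 were higher (Klra7 and Klra9) and 3 lower, with Klrb1c, an NK receptor gene, at 324 and 116 CPM. Of the transcription factors 4 of 11 were higher there, among them Eomes at 18.6 and 51.1 CPM, and 2 lower, Id2 at 2120 and 702 CPM and Irf8. Eomes in other T-like cells reached the UMI minimum for a ratio only through the pool. The granule proteins gave 1 of 5 in CD8 T-like cells (Cst7, higher) and 0 of 6 in other T-like cells.

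Among the lectin-like receptors 0 of 14 passed 1 in NK-like cells and 1 of 9 in ILC1-like cells, where Klra9 stood at 384 and 154 CPM (log2 ratio -1.32). The receptor adaptors gave 0 of 9 in both classes. Of the transcription factors, Tcf7, a factor of naive and early lymphocytes, was higher in the pool in NK-like cells (154 and 411 CPM, log2 ratio 1.39) and in ILC1-like cells (61.2 and 219 CPM, log2 ratio 1.80), as 1 of 9 and 1 of 6. Tcf7 reached the UMI minimum for a ratio in both classes only through the pool, where it is high. Tbx21, which encodes T-bet, had a ratio of 0.48 in ILC1-like cells, and Id2 was at -0.65 and -0.82. In CD8 T-like cells Eomes stood at 12.5 CPM, from 1 UMI, in the NCD library and at 377 CPM in the pool. Of the genes that respond to interferon gamma, 11 of 15 in neutrophils were higher and 0 lower, where 8.15% of all genes were higher and 4.51% lower, and in Kupffer cells 0 of 17 passed 1 in either direction, where 3.51% were higher and 4.18% lower. The receptor genes Ifngr1 and Ifngr2 stood at 413 and 145 CPM in Kupffer cells of the NCD library and at 436 and 118 CPM in the pool.

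Across 66 points, the clusters and classes of both libraries, the genes whose log2(CPM + 1) was most like that of each member were sought among 12384 genes. Nkg7 followed Ctsw (Pearson r = 0.94), a cathepsin of cytotoxic cells, and Tbx21 (0.91). Fasl followed Tbx21 (0.90) and Nkg7 (0.88), Prf1 followed Nkg7 (0.86) and Ctsw (0.82), and Gzmb followed Nkg7 (0.85) and Sytl3 (0.84). Ifng was most like Samd3 (0.82) and Xcl1 (0.78), Klrd1 most like Il12rb2 (0.76) and Klre1 (0.74), Gzma most like Klrb1a (0.74) and Ncr1 (0.73), and Klrg1 most like Tigit (0.68). The points share libraries, depth and cell types, so these values describe the ranking only.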

How the data were processed

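Single liver cells of 2 libraries were counted by the authors with the BD Rhapsody pipeline (version 1.10.1) on GENCODE release M19 of build GRCm38. The deposited values are error-corrected counts of molecules (UMIs) per gene and cell, whole numbers that are neither filtered nor scaled. A sample with tags of the pool was not used here. Cells with 200 to 4000 genes and at most 25% mitochondrial UMIs were kept, after the study's methods, which with strict limits left 23312 cells of the library taken as NCD, the number the study gives for NCD livers, and 19599 pool cells, more than the study kept from its HFHC mice. SCTransform was run per library (4000 variable genes, the 8 genes left out), followed by integration by reciprocal PCA (Seurat 5.3.0, R 4.3.3, 30 components, resolution 0.8), and T, NK and ILC clusters were clustered again at resolution 1. Clusters were named from marker lists, by a score of at least 1 and at least 3 detected markers. A lymphocyte cluster was called mixed where more than 0.5 of another lineage's markers were each found in at least 10% of its cells. These thresholds and this rule were chosen with the clustering already in view. A cluster with more of its 10 leading genes from other types' lists than from its own type's list stayed unnamed. Mixed clusters (389 and 316 cells) stand apart. Doublets were left in, and their removal was an alternative.

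UMIs were summed per class and library and scaled to the class total (CPM). Ratios add 1 UMI and need 100 UMIs or more over the 2 groups. Levels have exact Poisson, shares exact binomial (Clopper-Pearson) and ratios exact binomial 95% intervals, which cover counting error only; a count of 0 is set to a limit of 3 counts. With 1 library per group no test was run. The code was tested on simulated data (Python 3.11.15, numpy 2.4.6, scipy 1.17.1, pandas 2.3.3, scanpy 1.11.5, matplotlib 3.10.9). The genes named are the 8, up to 4 per pathway list with the largest ratios, and for each of the 8 the 3 most alike; Fas, Ifngr1, Ifngr2 and the leaders of clusters were picked with their values in view. The interferon gamma response list is not reported here for lymphocyte classes. The 8 genes and all lists were chosen with earlier results of these data known.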

Additional observations from a re-analysis of the deposited data

Results flagged for a closer look

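For 2 genes the ratio of pool over NCD had a counting interval above 0 in one lymphocyte class and below 0 in another; the differences were not tested, since each condition has 1 library. Fasl had a log2 ratio of 0.96 in NK-like cells and 1.72 in CD8 T-like cells, against -0.47 in ILC1-like cells and -0.77 in other T-like cells. In cells thinned to 1000 UMIs it was 0.40 in NK-like and -0.14 in ILC1-like cells. The CD8 T-like value rests on 5 UMIs in the NCD library. Nkg7 had 0.17 in ILC1-like cells and 0.74 in CD8 T-like cells against -0.43 in other T-like cells. The CD8 T-like class holds different clusters in each library, and in its cluster led by Cd8b1 and Cd8a alone the Nkg7 ratio was 0.20 with an interval of -0.06 to 0.50. The other T-like class is made of clusters in different proportions in the 2 libraries, with 866 and 55 cells in its NKT-like cluster led by Tcrg-C1 and Cxcr6, and within that cluster the Fasl ratio was 0.46 with an interval of -0.15 to 0.95.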

How the results depend on the processing

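No paired analysis was possible because each diet has 1 library. Each alternative repeats at most 41 ratios of single genes whose counting interval excluded 0. Counted over all alternatives, 401 of 416 such values kept their sign, so the same ratios are counted many times. All 41 did without doublets, 37 of 41 with the 8 genes in the clustering, and 31 of 35 with each library clustered alone. In ILC1-like cells Gzma stayed between -2.40 and -2.09, Gzmb between -1.77 and -1.72 and Ifng between 1.68 and 3.34 in 8 alternatives. Libraries clustered alone and classes from own markers are not among these 8, since they gave no ILC1-like ratio. In NK-like cells Ifng stayed between 2.07 and 2.31 and Gzmb between -0.81 and -0.58 in 9, while Gzma turned to 0.10 in thinned cells.

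CD8 T-like values depended on the class. Gzma over the NCD library turned to 2.58 with each library clustered alone, 2.83 with the 8 genes in the clustering, 0.73 and 0.31 with classes from each cell's own markers (without an upper limit on genes for the latter), 0.94 in thinned cells and 6.04 without the 1 cell, and Gzmb to 2.36, 1.90 and 0.23 with libraries alone, the 8 genes in and without the cell. The median of the genes moved to 2.36, 1.90, 1.09, 1.01 and 1.01 in the first 4 and the last of these. Gzmb of NK-like over CD8 T-like cells of the NCD library turned to 2.93, 2.65 and 0.84 with libraries alone, the 8 genes in and without the cell, and the median moved to 2.93, 2.73 and 2.50, and to 2.49 in thinned cells. In the pool Nkg7 turned to 0.052 with the 8 genes in.

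With libraries alone no ILC1-like cluster was named in the NCD library, so that NK-like and ILC1-like cells together gave -0.48 for the median and -0.55 for Prf1. The NCD cluster that scored best as ILC1 there (345 cells) stayed unnamed and was counted as other T-like. The median in other T-like cells moved to -0.71 with libraries alone, -0.41 at the lower resolution, and -0.66 with own markers (-0.66 without the upper limit). The median share of UMIs in NK-like, ILC1-like and T-like cells lay between the 75.2% of Nkg7 and the 75.8% of Fasl in the NCD library. In the pool it lay between the 81.3% of Ifng and the 82.9% of Nkg7. It moved to 86.1% and 86.7% without doublets, which were 8.17% and 1.96% of the kept cells. It moved in the pool to 85.3% with the 8 genes in, and to 81.7% and 88.3% with own markers (81.7% and 85.7% without the upper limit). At 500 UMIs a cell the median share with a UMI moved to 43.1% and 36.4% for NK-like, 28.4% and 14.1% for ILC1-like and, in the pool, 11.9% for CD8 T-like cells. Leaving out the 1 cell or the shared barcodes, and using 1 CD8 cluster, were chosen after seeing the data. The 35 CD8 T-like cells of the NCD library, and its 0 to 25 Ifng UMIs in the NK-like, ILC1-like and CD8 T-like classes, limit the precision of those ratios. Nkg7 in CD8 T-like cells ranged from 0.20 to 2.23.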
